A study of Mus musculus with 17 samples.

Results

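Complement components and regulators are described here through 9 genes: C3, C4b, C2, Cfb, Cfd, Cfp, Serping1, C3ar1 and C5ar1. They were taken by gene symbol, from a list made with earlier results of these data known, and all 9 were listed in every file. They stand among 13905 genes of the wild-type and tumour files and 39179 genes of a separately scaled set from an inducible model. RNA was sequenced from frozen prostate or prostate tumour of C57BL/6 mice. The wild-type group held prostate of mice aged 12 months (n = 3). The Ctnnb1 group held tumours of mice aged about 12 months with 1 Ctnnb1 allele lacking exon 3, labelled Ctnnb1pc(ex3)Δ/+ (n = 3). Ctnnb1 encodes beta-catenin, and loss of exon 3 removes the sites that mark the protein for degradation. The combined group carried this allele and a further engineered change and was sampled at about 6 to 8 months (n = 3), so in it genotype and age cannot be told apart. The labels do not say what drives the deletion in these groups. In the inducible model of the combined genotype the label names the driver Nkx3-1CreERT2, and tumours were taken at about 15 months after mock treatment (n = 2) or ADT (n = 3). ADT is the common abbreviation for androgen deprivation therapy, which the labels do not spell out. All tumour groups used here share the Ctnnb1 change. The labels do not say that each library came from a separate mouse, so p-values measure only the spread between these samples.

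Complement is a cascade of plasma and tissue proteins that tags targets, recruits leukocytes and can form a pore in membranes. The classical pathway starts from C1 and joins C4 and C2 into a C3 convertase. The alternative pathway builds its convertase from C3 itself with factor B, cut by factor D and stabilised by properdin. Both cut C3, and the small fragments C3a and C5a act on receptors of myeloid cells. Most circulating complement comes from the liver, but macrophages, fibroblasts and epithelial cells also make parts of it.

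Deposited values are scaled, rounded gene counts. Their sums ranged from 32455483 to 47248750 per library in the wild-type and tumour files and from 30591734 to 32791101 in the inducible files. These sums are not sequencing depths, and the depth is unknown. Ctnnb1 itself lay between 18320 and 18850 in wild type and between 25993 and 32871 in the tumours of the first file set, which a gene-level value cannot relate to exon 3. The luminal epithelial markers were present in every group, with summed values from 61718 to 153496. Smooth muscle genes were lower in both tumour groups, with 6 of 6 called in each. Of all genes, 29.6% were called lower in Ctnnb1 tumours and 29.5% in combined tumours. Wild-type libraries also held abundant seminal vesicle transcripts, with summed values from 446343 to 4389271. In bulk tissue, fewer cells of a type and less RNA per cell cannot be told apart.

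Promoter sequences were held for 5 of the 9 genes in RefSeq (GRCm38.p6). Those of C3 and C3ar1 are shown because these are the central component and a receptor whose values moved in the comparisons below. Each is the 250 bases before the start site on the gene's strand, and capitals mark the motif matches found.
C3: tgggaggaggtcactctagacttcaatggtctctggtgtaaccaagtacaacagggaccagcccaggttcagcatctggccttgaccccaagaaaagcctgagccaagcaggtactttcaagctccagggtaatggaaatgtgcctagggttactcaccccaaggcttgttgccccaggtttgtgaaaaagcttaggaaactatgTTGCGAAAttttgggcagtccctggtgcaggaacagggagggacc
C3ar1: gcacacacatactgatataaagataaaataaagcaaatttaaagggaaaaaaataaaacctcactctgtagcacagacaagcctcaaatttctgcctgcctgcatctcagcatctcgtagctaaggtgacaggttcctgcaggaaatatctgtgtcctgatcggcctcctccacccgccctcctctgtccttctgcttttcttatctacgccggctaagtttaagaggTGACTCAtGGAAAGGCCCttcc
The C3 window lies at chr17:57228137-57228386 on the minus strand. Its capitals match TTGCNNAA, letters bound by C/EBP factors, 45 bases before the start. The C3ar1 window lies at chr6:122856158-122856407 on the minus strand. It holds TGANTCA, the AP-1 letters, 22 bases before the start, and the NF-kB letters GGG, any 2 bases and TTTCC, read on the other strand, 14 bases before it. C5ar1 held AGGAAGT, the PU.1 letters, at 190 and 72 bases before its start, each on the other strand. Cfd and Cfp held none of the 8 motifs searched. Of 32851 promoters of the same length searched on both strands, 9.56% held the C/EBP letters, 6.75% the AP-1, 1.41% the NF-kB and 7.69% the PU.1 letters. No match was found in the 5 windows for ISRE (GAAA, any 2 bases and GAAA, 2.98% of promoters), GAS (TTCNNNGAA, 7.02%), the androgen receptor letters (AGAACA, 16.1%) or TCF/LEF (CTTTGAT, 3.21%). A match is a description of letters and not of binding.

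Against wild type, 3 of the 9 genes were higher in Ctnnb1 tumours and none was lower, while 58.5% of all genes were called, 28.9% higher and 29.6% lower (limma, adjusted p under 0.05). The 3 were Cfb and the anaphylatoxin receptors C3ar1 and C5ar1. In the combined tumours 7 of 9 were higher and none was lower, where 57.8% of all genes were called, 28.3% higher and 29.5% lower. The 7 were C3, C4b, C2, Cfb, Cfp, C3ar1 and C5ar1. The median log2 change of the 9 genes was 0.84 in Ctnnb1 tumours and 2.61 in combined tumours, beside 0.00 and -0.01 over all genes tested. Changes are differences of log2(value + 1), given with the moderated standard error (SE) and a Benjamini-Hochberg adjusted p over all 13905 genes. By values alone, 5 genes lay higher and 1 lower in all Ctnnb1 libraries than in all wild-type libraries, beside 71.5% of all genes (35.9% higher, 35.6% lower). In combined tumours 7 lay higher and 0 lower without overlap, beside 66.1% of all genes (32.1% higher, 34% lower). The comparisons share the wild-type libraries, and the tumour groups were not compared with each other.

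**Figure D1:**
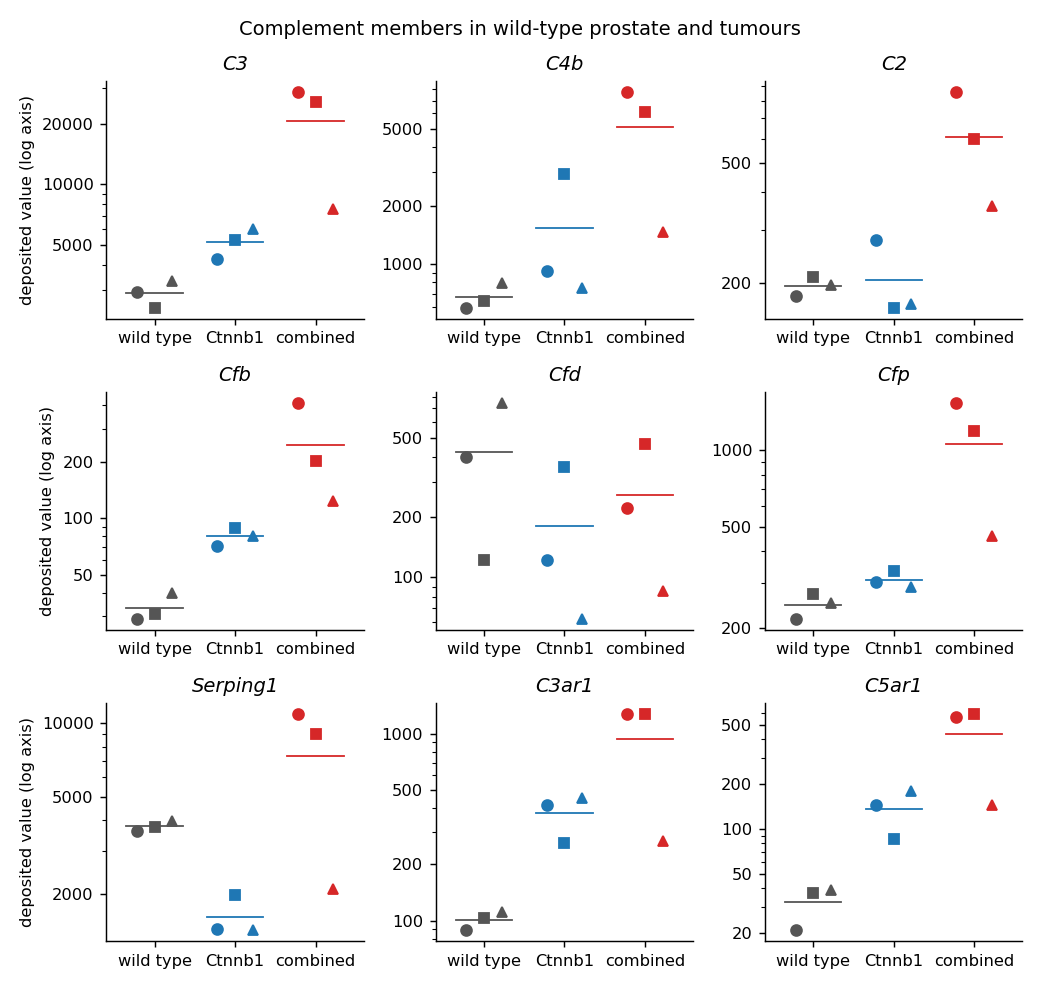
Deposited value (log axis) of each complement gene in the 3 wild-type, 3 Ctnnb1 and 3 combined libraries. Points are libraries, with replicates in label order as circle, square and triangle, and lines are group means. Combined replicate 12 (triangle) is the lowest of its group in all 9 panels.

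C3 is the protein on which all complement pathways meet, and its gene spans chr17:57203970-57228136. Its values in wild type were 2927, 2450 and 3328. In Ctnnb1 tumours they were 4282, 5299 and 6017, and in combined tumours 28688, 25531 and 7566. Every tumour library lay above every wild-type library, and combined replicate 12 lay far below the other combined libraries. C3 was 2.62 log2 units higher in combined tumours (SE 0.45, limma adjusted p = 0.00143). The change in Ctnnb1 tumours was 0.84 (SE 0.45) and was not called (limma adjusted p = 0.139). It passed when libraries were set to equal totals (1.33, adjusted p = 0.0245) or when only the wild-type and Ctnnb1 libraries were fitted (adjusted p = 0.00371).

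C4b and C2 supply the classical convertase. C4b (chr17:34728380-34743882) had values of 591, 639 and 799 in wild type, 916, 2909 and 750 in Ctnnb1 tumours, and 7767, 6077 and 1452 in combined tumours. Among the Ctnnb1 libraries, replicate 14 was high and replicate 15 lay within the wild-type range. All 3 combined libraries lay above wild type. The log2 change was 2.61 in combined tumours (SE 0.68, limma adjusted p = 0.0111) and 0.91 in Ctnnb1 tumours (SE 0.68, adjusted p = 0.276). C4a, a near copy, shares 18.9% of the 90-base windows of the C4b transcript, so part of these values may come from it. C2 (chr17:34862604-34898265) read 180, 209 and 197 in wild type, 276, 165 and 170 in Ctnnb1 tumours, and 858, 600 and 360 in combined tumours. It was higher by 1.54 in combined tumours (SE 0.32, limma adjusted p = 0.00382). In Ctnnb1 tumours the groups overlapped, and the change was 0.02 (SE 0.32, adjusted p = 0.959).

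Cfb, Cfd and Cfp encode factor B, factor D and properdin of the alternative pathway. Cfb (chr17:34856374-34862518) is the neighbour of C2, and an annotated transcript that joins the pair covers 79.5% of Cfb exonic bases and 42.8% of those of C2, so the reads of both are uncertain. Cfb values were 29, 31 and 40 in wild type, 71, 89 and 80 in Ctnnb1 tumours, and 412, 201 and 124 in combined tumours, with no overlap between wild type and either tumour group. Cfb rose by 1.25 in Ctnnb1 tumours (SE 0.41, limma adjusted p = 0.0284) and by 2.68 in combined tumours (SE 0.41, adjusted p = 7.69e-04). Its call in Ctnnb1 tumours was lost without any of Ctnnb1 replicates 13, 14 and 15 or wild-type replicates 1 and 2, with an adjusted p of up to 0.0802 for a change of at least 1.16, and also with voom (adjusted p = 0.172).

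Cfp (chrX:20925454-20931555) had values of 217, 273 and 251 in wild type and 304, 334 and 290 in Ctnnb1 tumours. The groups did not overlap, but the change of 0.33 was not called (SE 0.39, limma adjusted p = 0.485). In combined tumours Cfp read 1530, 1192 and 458 and was higher by 1.93 (SE 0.39, limma adjusted p = 0.00305). Properdin is made by leukocytes, unlike most complement proteins. Cfp amounted to 4.6% to 5.48% of the summed macrophage markers in wild type, 1.46% to 3.57% in Ctnnb1 tumours and 2.53% to 3.60% in combined tumours.

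Cfd (chr10:79890853-79892655), also known as adipsin and made mainly by fat cells, was not called in combined tumours, unlike Cfb and Cfp. It read 400, 122 and 745 in wild type, 122, 357 and 62 in Ctnnb1 tumours, and 222, 467 and 86 in combined tumours. The groups overlapped throughout. The log2 changes were -1.24 in Ctnnb1 tumours (SE 0.89, limma adjusted p = 0.255) and -0.67 in combined tumours (SE 0.89, adjusted p = 0.535), and neither was called. The genes closest to Cfd over the 9 libraries, by Pearson r of log2(value + 1) among 13258 genes, were the fat cell genes Adipoq (r = 0.97), Plin1 (0.94) and Cidec (0.91). Wild-type replicate 3 was the highest and Ctnnb1 replicate 15 the lowest for Cfd. In the same libraries Adipoq was 337 and 12. Of the 6 adipocyte markers listed, 0 were called higher and 1 lower in Ctnnb1 tumours, beside 28.9% and 29.6% of all genes. In combined tumours 1 was higher and 1 lower, beside 28.3% and 29.5% of all genes. The summed value of these 6 ranged from 1921 to 5161 in wild type, 671 to 1098 in Ctnnb1 tumours and 1200 to 2361 in combined tumours. Cfd amounted to 61.1% to 73.7% of the sum of Adipoq, Plin1 and Cidec in wild type, 178% to 222% in Ctnnb1 tumours and 95.3% to 269% in combined tumours. This ratio was thus higher in all 6 tumour libraries than in wild type, although Cfd itself overlapped. Its denominator holds only the markers that were also closest to Cfd in these libraries. The sum of all 6 markers overlapped between wild type and combined tumours, so the ratio need not hold for that sum. The part of fat cells in the Cfd values was not tested.

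Serping1 (chr2:84765387-84775444) encodes the C1 inhibitor, which blocks the proteases that start the classical pathway. Its wild-type values were close together at 3614, 3748 and 3972. Ctnnb1 tumours read 1432, 1988 and 1421, all below wild type. The change of -1.24 was not called in the 9-library fit (SE 0.54, limma adjusted p = 0.0753), but it passed when only these 2 groups were fitted (adjusted p = 4.23e-04). Combined tumours read 10899, 9032 and 2095. Replicates 10 and 11 stood above wild type and replicate 12 below it, so the change of 0.65 was not called (SE 0.54, limma adjusted p = 0.326). Without combined replicate 12 it was 1.39 (adjusted p = 2.86e-04), a rise that leaving out the lowest value brings by construction. Among 10 fibroblast and matrix genes, 2 were lower and 0 higher in Ctnnb1 tumours, beside 29.6% and 28.9% of all genes. The smallest p was that of Dcn (-1.70), which encodes decorin. In combined tumours 7 were higher, among them the collagen gene Col1a1 (3.52), and 0 lower, beside 28.3% and 29.5% of all genes. The summed value of these genes ranged from 33923 to 40343 in wild type, 19127 to 29579 in Ctnnb1 tumours and 39076 to 577306 in combined tumours, with the lowest combined sum in replicate 12. Their part in the Serping1 values was not tested.

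C3ar1 and C5ar1 encode the receptors for C3a and C5a on macrophages and neutrophils. C3ar1 (chr6:122847138-122856161) read 89, 103 and 111 in wild type, 415, 262 and 455 in Ctnnb1 tumours, and 1274, 1276 and 267 in combined tumours. C5ar1 (chr7:16246743-16259540) read 21, 37 and 39 in wild type, 144, 86 and 181 in Ctnnb1 tumours, and 564, 589 and 145 in combined tumours. For both genes every tumour library exceeded every wild-type library. In Ctnnb1 tumours C3ar1 rose by 1.86 (SE 0.56, limma adjusted p = 0.0208) and C5ar1 by 2.03 (SE 0.56, adjusted p = 0.0146). In combined tumours the rises were 2.90 (SE 0.56, adjusted p = 0.00261) and 3.50 (SE 0.56, adjusted p = 0.00105). With voom the combined C3ar1 call was lost (adjusted p = 0.0527), as were the Ctnnb1 calls of C3ar1 (0.207) and C5ar1 (0.176). The Ctnnb1 calls also depended on single libraries. Without wild-type replicate 1 the adjusted p was 0.0609 for C3ar1 and 0.0527 for C5ar1, and without Ctnnb1 replicate 15 it was 0.0649 and 0.0517. The C3ar1 call was also lost without wild-type replicate 2 (0.0518) or Ctnnb1 replicate 13 (0.0609).

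**Figure D2:**
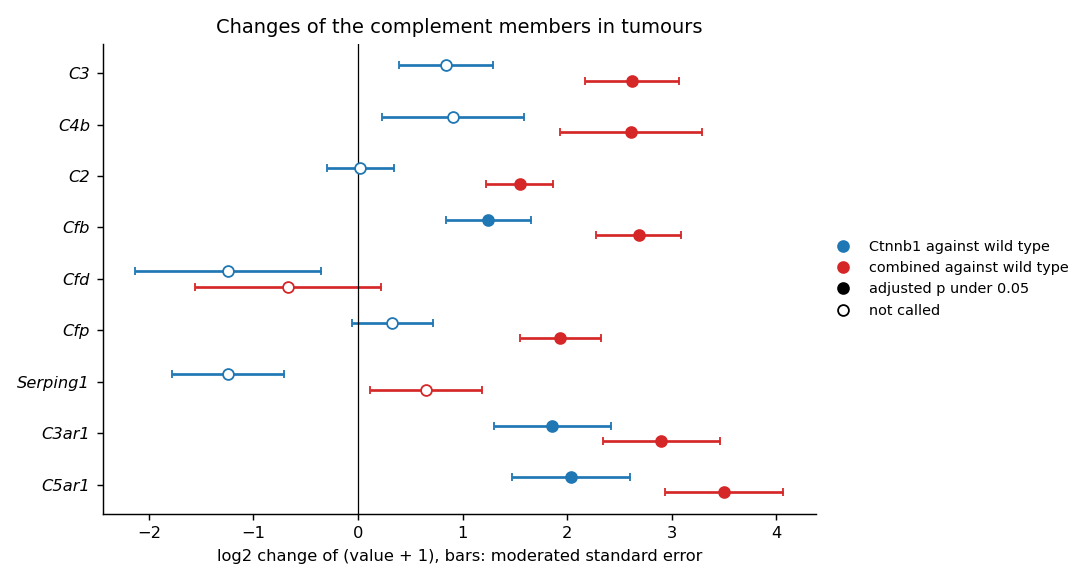
Log2 change of (value + 1) against wild type for each complement gene in Ctnnb1 (blue) and combined (red) tumours, with bars for the moderated standard error. Filled points passed an adjusted p of 0.05, which were 3 of 9 in Ctnnb1 tumours and 7 of 9 in combined tumours.

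Most markers of macrophages and monocytes moved with the receptors. Of 12 such markers, 9 were higher and 1 lower in Ctnnb1 tumours, beside 28.9% and 29.6% of all genes. In combined tumours 10 were higher and 0 lower, beside 28.3% and 29.5% of all genes. Cd68, a lysosomal protein of macrophages, rose by 1.47 and 2.61, and Msr1, a scavenger receptor, by 2.43 and 4.07. Cd163 went the other way, by -2.53 in Ctnnb1 tumours (limma adjusted p = 0.0189) and -1.75 in combined tumours (not called, adjusted p = 0.0746). Mrc1 was called in neither group (-0.07 and 1.73). The summed marker value was 4716 to 5036 in wild type, 9359 to 19932 in Ctnnb1 tumours and 12724 to 47041 in combined tumours. C3ar1 amounted to 1.89% to 2.2% of this sum in wild type, 2.28% to 3.31% in Ctnnb1 tumours and 2.1% to 2.72% in combined tumours. The share in combined tumours overlapped that in wild type, and the share in Ctnnb1 tumours did not. For C5ar1 the shares were 0.445% to 0.774%, 0.908% to 1.15% and 1.1% to 1.25%, above wild type in all 6 tumour libraries. Lyz2 was the largest part of the sum, with 1882 of 4716 in wild-type replicate 1 and 22403 of 46906 in combined replicate 10. The shares of C3ar1, C5ar1 and Cfp, and their overlap between groups, need not hold for a sum without it. Neutrophil markers were also higher, 3 of 5 in Ctnnb1 and 5 of 5 in combined tumours, with Csf3r up by 2.25 and 3.75. The part of either cell type in the receptor values was not tested.

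**Figure D3:**
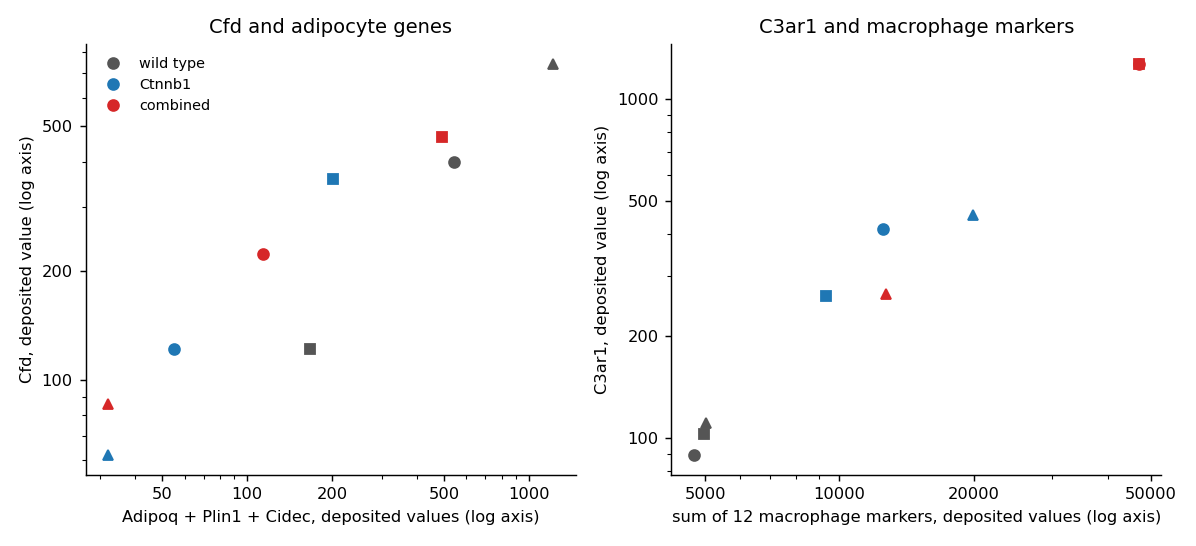
Left, Cfd against the summed values of Adipoq, Plin1 and Cidec. Right, C3ar1 against the summed values of 12 macrophage markers, with all axes logarithmic, 1 point per library and the same symbols as in the plot of values by library. Wild-type libraries span 122 to 745 for Cfd and overlap the tumours, and lie below all tumours for C3ar1 (89 to 111).

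Likeness across the 9 libraries sorted the genes in the same descriptive way. These r values share the libraries and their scaling, and large group differences raise all of them. C3ar1 was most like C1qb, C1qc and Tyrobp, a signalling adaptor of myeloid cells (r = 0.995, 0.995 and 0.994). C5ar1 was most like Clec5a, Ms4a6d and Sirpb1c (r = 0.997, 0.993 and 0.993). The genes most like C3 were Sdc3, Ifi204 and Cd300ld (r = 0.99 each), and those most like Cfb were Ifi203, Was and Trim30a (0.99, 0.99 and 0.98). C4b was closest to Col8a1, Csgalnact1 and the terminal component C6 (0.98, 0.97 and 0.97). For C2 the closest were Calhm2, Ctla2a and Lrrc32 (0.98, 0.98 and 0.97), for Cfp Sdc3, Emp1 and Pcdhb9 (each 0.99), and for Serping1 Rassf2, Steap3 and Fcgrt (0.99, 0.98 and 0.98). Among the 9 genes themselves, r reached 0.99 between C3ar1 and C5ar1, while Cfd did not exceed 0.54 with any other.

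Combined replicate 12 had the lowest value of its group for 9 of 9 genes, beside 34.7% of all genes, and the median gene in it was at 0.252 of the mean of the other 2 libraries. Without it the combined comparison called 8 of 9 genes, Serping1 being added, beside 8175 of 13905 genes. Leaving out the lowest library raises the change of all 9 genes by construction, so this gain is only a description. Per kilobase of exon, Serping1 had the highest level in wild type at 1625 ± 77.8 (SD, n = 3). C3 (564 ± 85.5) and Cfd (458 ± 339) followed and overlapped, then Cfp (142 ± 16.3) and C4b (119 ± 19.1), also within their spread. C2 (50.5 ± 3.76) and C3ar1 (23.5 ± 2.59) came next, and C5ar1 (12.6 ± 3.84) and Cfb (11.8 ± 2.07) were the lowest and not separated. The ranks of Cfb and C2 are uncertain, since the transcript that joins them covers 79.5% and 42.8% of their exonic bases. In Ctnnb1 tumours C3 led at 1011 ± 170 per kilobase, with Serping1 at 694 ± 139. In combined tumours C3 was at 4004 ± 2220 and Serping1 at 3158 ± 2000 per kilobase, within their spread.

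The rest of the complement system was read from a fixed list of 51 other genes, of which 31 were listed in these files. In Ctnnb1 tumours 11 of the 31 were higher and 8 lower, with a median log2 change of 0.53. These counts lay near the background of 28.9% higher and 29.6% lower over all genes. In combined tumours 16 were higher and 5 lower, with a median of 1.61, beside 28.3% higher and 29.5% lower over all genes. Genes absent from these files are not genes without expression, since features of low value appear to have been removed before deposit.

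All 3 C1q chain genes were higher in both comparisons. C1qa, a chain of the recognition molecule C1q that macrophages make, read 574, 543 and 667 in wild type, 2037, 1505 and 1971 in Ctnnb1 tumours, and 5302, 4589 and 1740 in combined tumours. It rose by 1.62 and 2.55 (limma adjusted p = 0.00609 and 6.34e-04). C1ra, a protease of C1, rose by 1.16 and 1.31 (adjusted p = 8.04e-04 and 4.19e-04), whereas the related C1rl fell by 1.22 and 1.87 (adjusted p = 4.18e-04 and 5.65e-05). Masp2, a protease of the lectin pathway, fell by 3.89 in Ctnnb1 tumours, from 98, 146 and 131 to 5, 13 and 6 (adjusted p = 0.00607). In combined tumours it read 9, 70 and 4 and was also lower (-3.03, adjusted p = 0.0188). That call was kept in 3 of 6 fits that each left out a library.

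Among the terminal components, which form the membrane pore, C7 was lower in Ctnnb1 tumours, with wild-type values of 1750, 1717 and 1411 against 69, 112 and 133 (-3.99, limma adjusted p = 0.00501). It was also lower in combined tumours, at 735, 341 and 42 (-2.87, limma adjusted p = 0.022). That call was kept in 4 of 6 fits that each left out a library. Of the 5 listed, 2 were lower and 0 higher in Ctnnb1 tumours, beside 29.6% and 28.9% of all genes. In combined tumours 1 was higher and 2 lower, beside 28.3% and 29.5% of all genes. The higher gene, Hc, read 0, 4 and 3 in wild type and 57, 578 and 4 in combined tumours, so the groups overlapped. Its call was kept in 1 of 6 fits that each left out a library.

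Of 11 regulators, 3 were higher and 3 lower in Ctnnb1 tumours, close to the shares over all genes (28.9% and 29.6%), and 4 were higher and 1 lower in combined tumours (28.3% and 29.5% over all genes). C4bp, whose product binds C4b, had the smallest p of the list. It read 9, 6 and 9 in wild type, 205, 230 and 202 in Ctnnb1 tumours, and 185, 386 and 548 in combined tumours. Its changes were 4.58 (limma adjusted p = 5.08e-05) and 5.26 (2.72e-05), and combined replicate 12 was here the highest of its group. Clu, or clusterin, which holds back the pore, rose by 2.89 and 3.30 (adjusted p = 5.35e-04 and 2.78e-04). It read 20736, 11432 and 15431 in wild type, 174128, 60986 and 141334 in Ctnnb1 tumours, and 123592, 203626 and 138984 in combined tumours. Cfi, the protease that inactivates C3b, was higher in combined tumours (2.83, adjusted p = 4.16e-04), and its change in Ctnnb1 tumours was 0.37 (adjusted p = 0.423), with no test of that difference. The membrane regulator gene Cd59a was lower in Ctnnb1 tumours (-2.75, adjusted p = 0.00701), as was Susd4 (-3.13, adjusted p = 7.98e-04). Cr1l, the rodent membrane regulator also called Crry, was lower by 0.49 and 0.64 log2 units (adjusted p = 8.90e-04 and 2.35e-04). With equal totals, which shifted the median gene by 0.49 and 0.52, its changes were 0.0020 and -0.12 and its calls were lost.

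All 5 other receptor genes listed were higher in combined tumours and 4 of 5 in Ctnnb1 tumours, beside 28.3% and 28.9% of all genes. The Ctnnb1 call of Itgam was kept in 1 of 6 fits that each left out a library. Itgb2, the shared chain of complement receptors 3 and 4, rose by 1.93 and 2.92 (limma adjusted p = 0.00719 and 9.22e-04). With voom its call in Ctnnb1 tumours was lost (adjusted p = 0.0983). Cd93 rose by 1.77 and 2.74 (adjusted p = 8.83e-04 and 1.04e-04).

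**Figure D4:**
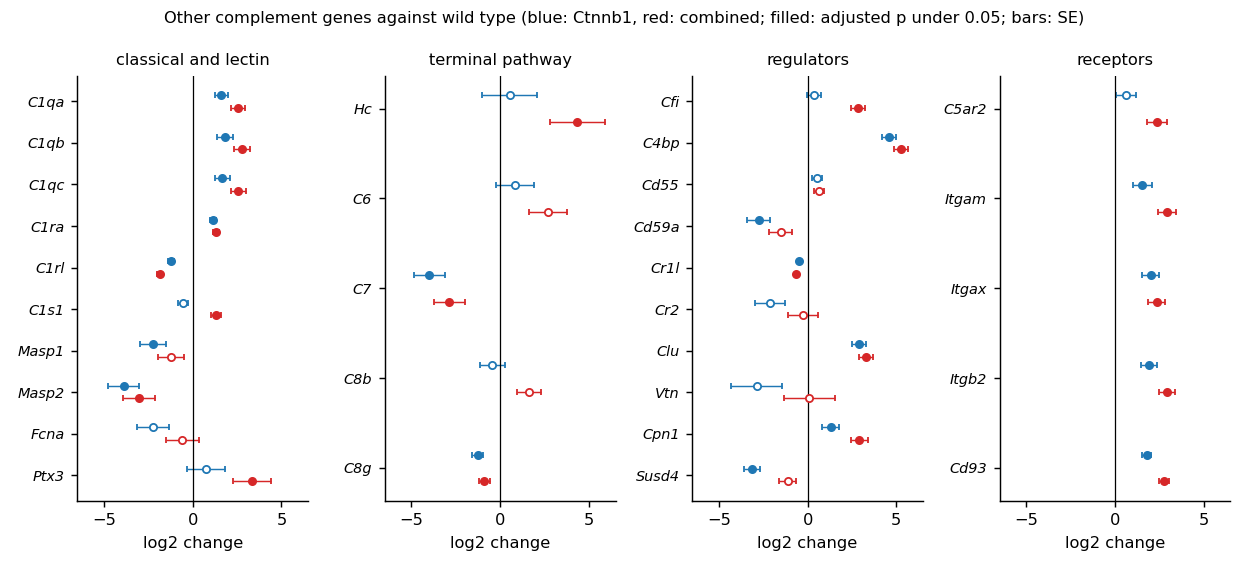
Log2 change against wild type of other complement genes listed, by role, in Ctnnb1 (blue) and combined (red) tumours, with bars for the moderated standard error. Filled points passed an adjusted p of 0.05, which were 19 genes in Ctnnb1 tumours and 21 in combined tumours.

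Response lists were read beside these genes, since inflammatory cytokines and interferon are known inducers of complement genes. Of all genes, 28.9% were higher and 29.6% lower in Ctnnb1 tumours, and 28.3% and 29.5% in combined tumours. Of 8 listed acute-phase and NF-kB genes, 7 were higher in Ctnnb1 and 8 in combined tumours, with Il1b up by 3.66 and 5.37. Of 11 interferon gamma response genes, 5 were higher and 1 lower in Ctnnb1 tumours and 8 higher and 1 lower in combined tumours. B2m, the light chain of class I molecules, fell by 1.33 in Ctnnb1 tumours. The part of these responses in the complement values was not tested.

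In the inducible model, ADT was compared with mock treatment within its own file set of 23289 tested genes. None of the 9 genes was called by limma or voom, where by limma 2 of all genes were (0.00859%), and 2 of the 9 had an unadjusted p under 0.05, beside 16.2% of all genes. Those 2 were C3 and C4b, lower in all 3 ADT libraries than in both mock libraries. Over all genes, 33.2% did not overlap between the groups, 16.4% being higher and 16.8% lower after ADT. Other lists were lower beside them, none with a called gene. Of 6 luminal epithelial markers 4 were lower without overlap, and their summed value was 61718 to 77279 after ADT against 100444 to 124190 after mock treatment. Of 11 acute-phase and NF-kB genes 7 were lower and 1 higher without overlap. The part of either in the C3 and C4b values was not tested. The median log2 change of the 9 genes was -0.82, beside -0.02 over all genes.

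C3 read 39627 and 22352 after mock treatment and 8214, 8024 and 8323 after ADT. The ADT libraries were nearly equal. The change was -1.86 (SE 0.26, limma adjusted p = 0.112). C4b read 18764 and 7128 against 3838, 1810 and 1914, a change of -2.29 (SE 0.56, adjusted p = 0.187). C4a, its near copy, was listed at 100 and 75 after mock treatment and at 59, 111 and 126 after ADT. Leaving out each library in turn gave a C3 change between -2.28 and -1.45 and a C4b change between -2.99 and -1.59, with no call.

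**Figure D5:**
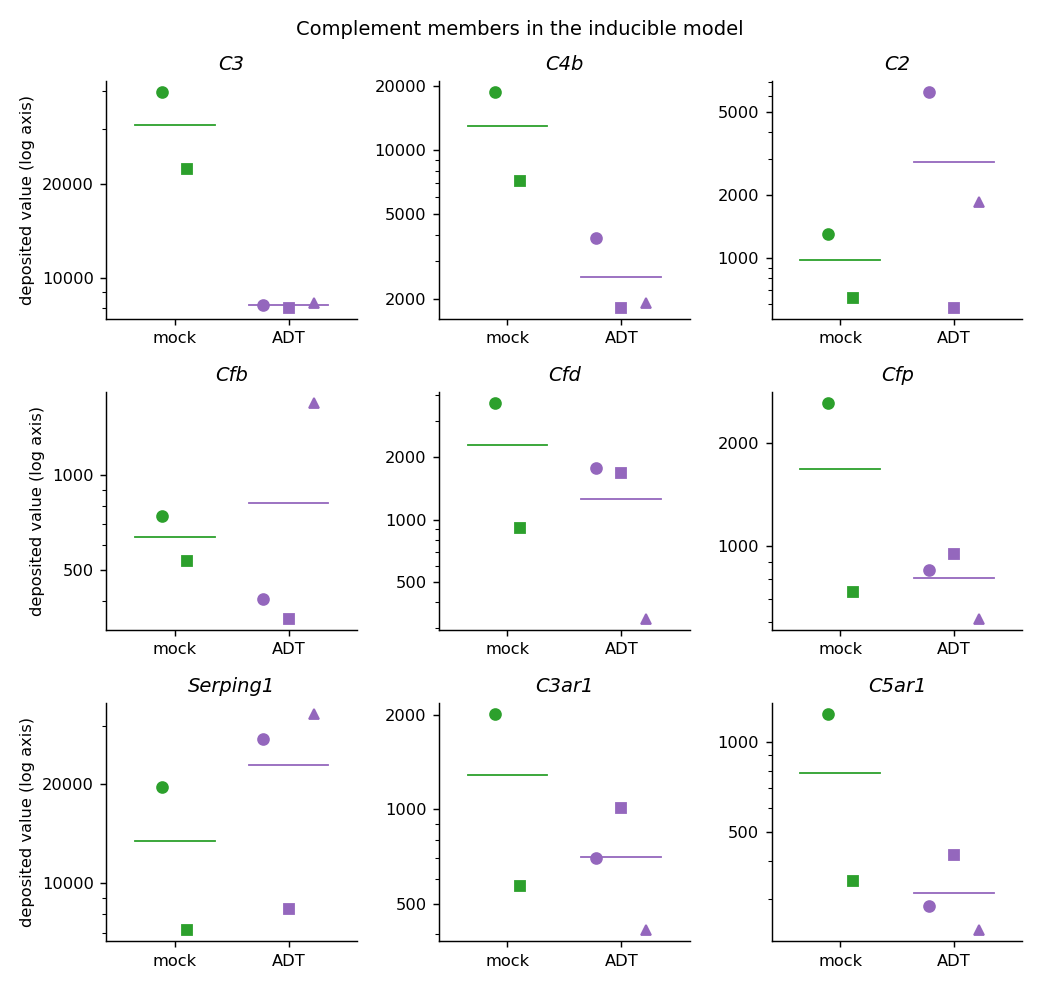
Deposited value (log axis) of each complement gene in the 2 mock and 3 ADT libraries of the inducible model. Points are libraries, with replicates in label order as circle, square and triangle, and lines are group means. Only C3 and C4b do not overlap between the groups, and mock replicate 1 (circle) exceeds mock replicate 2 in every panel.

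The other 7 genes overlapped between mock and ADT. Serping1 read 19614 and 7161 after mock treatment and 27342, 8333 and 32664 after ADT (change 0.72, SE 0.78, limma adjusted p = 0.695). C2 read 1310 and 646 against 6265, 577 and 1852 (1.03, SE 1.07, adjusted p = 0.680). Cfb read 742 and 534 against 406, 351 and 1689 (-0.02, SE 0.77, adjusted p = 0.993). These 3 were spread widely among ADT libraries. ADT replicate 1 was high for C2 and Serping1, and its summed fibroblast and matrix genes were 365228, against 77855 and 58325 in ADT replicates 2 and 3. ADT replicate 3 was high for Cfb and Serping1 and had the lowest of these sums. Genes of the sum differed, with Col1a1 at 16782 and 8955 and Dcn at 7930 and 13459 in ADT replicates 2 and 3. The part of fibroblasts in the Serping1, C2 and Cfb values was not tested. Alb, a gene of hepatocytes, was at 385 and 55 after mock treatment and at 26204, 212562 and 501486 after ADT. The other 7 hepatocyte markers lay at 33 or below after ADT, with Apoa1 and Fgb listed at 0.

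For the leukocyte and fat cell genes, the mock libraries differed widely from each other. Cfp read 2630 and 735 against 849, 950 and 611 (-0.82, SE 0.59, limma adjusted p = 0.546). C3ar1 read 2007 and 569 against 698, 1005 and 412 (-0.69, SE 0.67, adjusted p = 0.659), and C5ar1 1236 and 343 against 283, 419 and 236 (-1.10, SE 0.62, adjusted p = 0.462). Cfd read 3643 and 911 against 1772, 1671 and 333 (-0.87, SE 1.01, adjusted p = 0.719). Mock replicate 1 exceeded mock replicate 2 for 9 of 9 genes, beside 45.5% of all genes, by a median of 2.74 times. Its summed macrophage markers were 97013 against 29687, and its summed fibroblast genes 493036 against 96999. Leaving out each library moved the C5ar1 change between -2.02 and -0.18 and the C2 change between 0.17 and 1.89. Without mock replicate 1 the changes of Cfb, Cfd, Cfp and C3ar1 turned to 0.22, 0.13, 0.10 and 0.22. Per kilobase, the ADT libraries had Serping1 at 9798 ± 5500 and C3 at 1592 ± 29.4 (SD, n = 3), while the mock libraries had 5758 ± 3790 and 6026 ± 2380 (SD, n = 2).

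Of the 46 other complement genes tested in this model, 0 were called by limma or voom and 9 had an unadjusted p under 0.05, near the 16.2% of all genes. Those named here were chosen after their values were seen. C7 read 963 and 493 after mock treatment and 79, 37 and 63 after ADT (-3.57, SE 0.49, limma adjusted p = 0.11). Clu read 137341 and 107504 against 7926, 38445 and 15781 (-2.85, SE 0.69, adjusted p = 0.187), and Cd55, a membrane regulator, 2654 and 2954 against 1041, 751 and 483 (-1.95, SE 0.35, adjusted p = 0.136). C8b lay higher, at 38 and 44 against 90, 468 and 196 (2.28, SE 0.75, adjusted p = 0.257). None of the 12 macrophage markers was called, and 5 of them were lower in every ADT library than in both mock libraries.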

How the data were processed

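Per the labels' protocols, RNA with an integrity number above 7.3 was sequenced in paired reads of 90 nucleotides on a HiSeq 2000, at 6 Gb or more each. Strandedness is not given in the sources used here. Per the submitters' processing notes, the tools were DESeq2 1.14.1, HTSeq 0.6.0, TopHat2 2.1.0, R 3.2.3, FastQC 0.11.4 and Bowtie2 2.2.6.0, with the build GRCm38.p3. Their roles and order are not given in the sources used here. The deposited values are a score: gene counts that the authors scaled by library and then rounded, as judged from the values (median ratios 0.977 to 1.01, and 12 to 14 of the whole numbers from 1 to 60 held by no gene in wild-type libraries). The design had allowed for counts, and its test for scaled values was used. Raw counts and depth were not used here.

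Features without an Entrez number (631), rows that share an Entrez number (270) and features repeating another gene's values (389) were left out of the first file set, and 3668 repeats out of the inducible set. C3 values repeated under a second number were counted once. Genes with a value of at least 1 in 3 of 9 or 2 of 5 libraries were tested on log2(value + 1) with limma 3.58.1 (R 4.3.3; moderated, trended) and Benjamini-Hochberg adjustment over all genes, called at 0.05. The script was tested on simulated data. Tables, sums and motif searches used Python 3.11.15. Gene positions came from GENCODE M21 (GRCm38). Other complement genes were named if called, up to 12 per comparison by smallest p, and list genes by smallest p. Hc, Cd163 and Mrc1 were named besides, to show limits of their lists. The members and lists were chosen with earlier results of these data known. Alternatives were pseudocount 10, no filter or a mean of at least 10, equal totals, trimmed-mean scaling, voom, other sets of libraries and leaving out each library. A further genotype group (n = 3) and some genes of the lists are not reported here.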

Additional observations from a re-analysis of the deposited data

How the results depend on the processing

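For the combined tumours, the counts of called complement genes stayed within 1.5 times under each of the 32 alternative values, and 142 of 144 alternative values of the 9 genes kept their direction and their side of the threshold. The exceptions were Serping1 without combined replicate 12, given above, and C3ar1 with voom (adjusted p = 0.0527). Of the 415 alternative values of other complement genes in combined tumours, 27 lost a call and 11 gained it, and of the 336 in Ctnnb1 tumours, 21 lost a call, 4 gained it and 1 changed sign. The count of members called in Ctnnb1 tumours was less stable. The 3 calls became 0 with voom, which called 7491 of 13905 genes. They became 5 (4 higher, 1 lower) when only the 2 groups were fitted, where 8919 of 13904 genes were called. They ranged from 0 to 3 when each library was left out, while the count over all genes ranged from 6737 to 7373. C2, uncalled in Ctnnb1 tumours, changed sign to -0.04 without wild-type replicate 1 and to -0.22 without Ctnnb1 replicate 13, within a range of -0.22 to 0.15. Cr1l moved to 0.0020 in Ctnnb1 tumours with equal totals. In the inducible model none of the 9 genes was called under any alternative run. Uncalled changes turned sign without mock replicate 1 (Cfb 0.22, Cfd 0.13, Cfp 0.10, C3ar1 0.22), without mock replicate 2 (Serping1 -0.0066), without ADT replicate 1 (Cfb 0.29) and without ADT replicate 2 (Cfb 0.40). Leaving out each library gave ranges of -0.74 to 0.40 for Cfb, -1.87 to 0.13 for Cfd, -1.73 to 0.10 for Cfp, -0.0066 to 1.45 for Serping1 and -1.60 to 0.22 for C3ar1. The causes were not tested. Without a filter on low values 2 other complement genes were called there, Colec10 and Cd55b, both listed at values of 2 or less. Equal totals and trimmed-mean scaling called 48 and 53 of all genes in that comparison, in place of 2. With the replicate number as a block, the count of called complement genes stayed at 0 and the C3 change was -1.87 (adjusted p = 0.352). Libraries sharing a number had correlations of 0.22 and 0.12 in their deviations from the group means, and the numbers were not taken as pairs. Equal totals also raised the share of calls that were higher from 49.4% to 78.9% in Ctnnb1 and from 48.9% to 81.9% in combined tumours. Summing C4a with C4b gave -2.23 for ADT (adjusted p = 0.187), and this was not run in the first file set, where C4a was not among the features. Depth is unknown, so the counting error of low genes such as C5ar1 and Cfb cannot be stated.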
